A study of Homo sapiens with 4 samples.

Results

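Fatty acid synthesis, desaturation and elongation are described here through 10 genes, SREBF1, ACLY, ACSS2, ACACA, FASN, ELOVL5, ELOVL6, SCD, FADS1 and FADS2, chosen by name and read in RNA sequencing libraries of TOV21G cells. The genes were chosen with earlier results of these data known. They are 10 of the 26255 gene symbols of the deposited table, and all 10 belong to the 12260 genes that averaged 1 FPKM or more across the 4 libraries. FPKM counts fragments relative to transcript length and sequencing depth, so levels of different genes can be set side by side within a library. TOV21G is an established human line from an ovarian clear cell carcinoma. The control culture had no drug, another was given As2O3 (arsenic trioxide, a thiol-reactive drug of leukaemia treatment) at 1 µM, a further culture GSK458 (an inhibitor of PI3K and mTOR) at 0.1 µM, and the last both drugs at these doses. The labels give 48 h for the treated cultures. Neither a time nor a vehicle for the control was given in the sources used here.

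Cells build fatty acids from acetyl-CoA, which comes from citrate or from acetate, by making malonyl-CoA and extending a chain on the fatty acid synthase until palmitate is released. Elongases then lengthen the chain and desaturases place double bonds, which makes stearate, oleate and, from dietary precursors, the long polyunsaturated fatty acids of membranes. SREBF1 encodes the SREBP-1 factors, which are held in the endoplasmic reticulum as membrane proteins, are cut in the Golgi and act on promoters of most of these enzymes. Insulin signals through PI3K, AKT and mTOR complex 1 are known to raise SREBP-1 activity in liver and in tumour lines. This is background and was not measured in these libraries.

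There was 1 library per group, so no value has a replicate error, no test was run and no p-value is given. Every difference describes these cultures only. Depth in reads is unknown. If deposited values were scaled by depth alone, the steps between low values put the treated libraries between 85.8% and 109% of the control's depth. FPKM sums lay between 543975 and 588892. Of the markers of the label, the keratins KRT8 and KRT18 were at 165.8 FPKM or more in every library and the clear cell carcinoma markers PAX8 and ANXA4 at 83.59 FPKM or more, while EPCAM, KRT19 and CDH1 were below 2 FPKM and NAPSA was near 1 FPKM. Markers of fibroblasts, immune cells, endothelium and adipocytes summed to at most 5.87, 0.40, 0.08 and 0.15 FPKM in any library. The adipocyte markers ADIPOQ, LEP, CIDEC and FABP4 were listed at 0 in all libraries.

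The start regions of the genes whose levels differed most, and of 1 neighbour that differed little, are shown first, because SREBP-1 acts at such regions together with the factors NF-Y and SP1. Each is a RefSeq window of 300 bases on GRCh38.p14, from 250 bases before an annotated start, written 5′ to 3′ on the strand of the gene. Capitals mark CCAAT, the NF-Y box, and GGGCGG, the GC box of SP1, on both strands. The values came from hg19 and were not joined to these positions.
SCD, chr10:100346983-100347282, plus strand: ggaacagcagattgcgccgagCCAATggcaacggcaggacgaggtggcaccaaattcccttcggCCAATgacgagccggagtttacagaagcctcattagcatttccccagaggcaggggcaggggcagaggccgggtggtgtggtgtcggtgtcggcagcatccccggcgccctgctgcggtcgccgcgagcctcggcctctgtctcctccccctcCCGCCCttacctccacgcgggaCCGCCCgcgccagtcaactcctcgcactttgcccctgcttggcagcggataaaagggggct
SREBF1, chr17:17836937-17837236, minus strand: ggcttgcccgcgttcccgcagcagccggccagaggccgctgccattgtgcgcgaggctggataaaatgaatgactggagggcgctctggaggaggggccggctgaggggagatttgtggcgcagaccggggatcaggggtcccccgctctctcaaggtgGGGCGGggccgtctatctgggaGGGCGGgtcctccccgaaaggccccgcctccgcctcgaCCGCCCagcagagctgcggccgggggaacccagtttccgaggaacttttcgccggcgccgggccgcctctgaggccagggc
ELOVL6, chr4:110198566-110198865, minus strand: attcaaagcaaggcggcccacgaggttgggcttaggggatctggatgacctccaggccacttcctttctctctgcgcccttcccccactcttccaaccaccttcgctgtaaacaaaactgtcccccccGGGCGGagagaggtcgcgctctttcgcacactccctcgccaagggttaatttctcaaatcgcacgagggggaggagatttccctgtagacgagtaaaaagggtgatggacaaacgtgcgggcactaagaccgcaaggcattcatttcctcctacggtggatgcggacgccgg
FADS2, chr11:61816154-61816453, plus strand: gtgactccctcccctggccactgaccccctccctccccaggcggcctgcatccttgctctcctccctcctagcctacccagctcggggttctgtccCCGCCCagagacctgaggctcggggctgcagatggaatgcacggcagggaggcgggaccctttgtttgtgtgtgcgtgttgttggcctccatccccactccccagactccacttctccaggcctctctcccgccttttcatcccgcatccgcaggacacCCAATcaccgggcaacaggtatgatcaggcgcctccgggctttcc
FADS1, chr11:61816954-61817253, minus strand: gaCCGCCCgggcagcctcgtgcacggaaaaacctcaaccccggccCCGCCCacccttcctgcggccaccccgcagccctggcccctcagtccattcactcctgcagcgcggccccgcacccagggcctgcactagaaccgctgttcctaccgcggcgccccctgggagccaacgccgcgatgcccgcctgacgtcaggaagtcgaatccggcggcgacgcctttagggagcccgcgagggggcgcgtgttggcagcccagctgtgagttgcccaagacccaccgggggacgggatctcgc
ACSS2, chr20:34876362-34876661, plus strand: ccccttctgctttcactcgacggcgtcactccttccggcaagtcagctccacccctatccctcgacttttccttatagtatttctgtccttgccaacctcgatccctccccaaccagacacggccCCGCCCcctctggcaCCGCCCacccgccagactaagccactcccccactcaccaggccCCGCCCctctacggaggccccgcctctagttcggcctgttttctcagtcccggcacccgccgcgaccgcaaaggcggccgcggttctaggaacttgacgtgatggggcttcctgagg

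SCD held 2 NF-Y boxes and 2 GC boxes in its window, SREBF1 had 3 GC boxes and no NF-Y box, and ELOVL6 had 1 GC box and no NF-Y box. The FADS2 window shown held 1 of each, and its other window, chr11:61815953-61816252, held neither. FADS1 had 2 GC boxes. The ACSS2 window shown had 3 GC boxes and no NF-Y box, and its other window, chr20:34874739-34875038, had 1 of each. Over the 14 windows of the 9 members that had any, 8 held an NF-Y box and 11 a GC box, against 34.6% and 45.0% of all 35116 windows of that length. Some members have several windows, and those of 1 gene can overlap, so the 14 are not independent. The E-box CACGTG, which reads the same on both strands, was in a window of 1 member, ELOVL5, and in 7.26% of all windows. The sterol response element searched as TCACNCCAC on both strands was in no member's window and in 1.13% of all windows. GC boxes overlapped each other in 2 windows of ACACA, and no box of one kind overlapped a box of another kind. A match describes the letters only. Starts outside the table were not searched, so a gene without a box here may hold one at another start. The 2 FADS2 starts of the table lie 599 and 800 bases inside FADS1, which runs on the opposite strand. Gene values do not show which start these cells used, nor do they separate the SREBF1 messages for SREBP-1a and SREBP-1c.

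In untreated cells the desaturase genes FADS2 and SCD had the highest levels of the 10, and ACACA and ACSS2 the lowest. FADS2, the front-end desaturase that starts polyunsaturated fatty acid synthesis, led with 190.3 FPKM, followed by SCD, which makes oleate from stearate, with 163 FPKM. ACLY, which splits citrate into acetyl-CoA, stood at 91.1 FPKM, and ELOVL5, the elongase of polyunsaturated chains, at 64.2 FPKM. FADS1, the desaturase that acts after FADS2, FASN, the synthase itself, and SREBF1 followed with 33.4, 28.3 and 24.3 FPKM. ELOVL6, which lengthens palmitate to stearate, stood at 15.9 FPKM. ACACA, the carboxylase that makes malonyl-CoA, and ACSS2, which activates acetate, were lowest at 12.96 and 12.93 FPKM. Without replicates, the order of neighbours this close cannot be told apart from error.

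**Figure D1:**
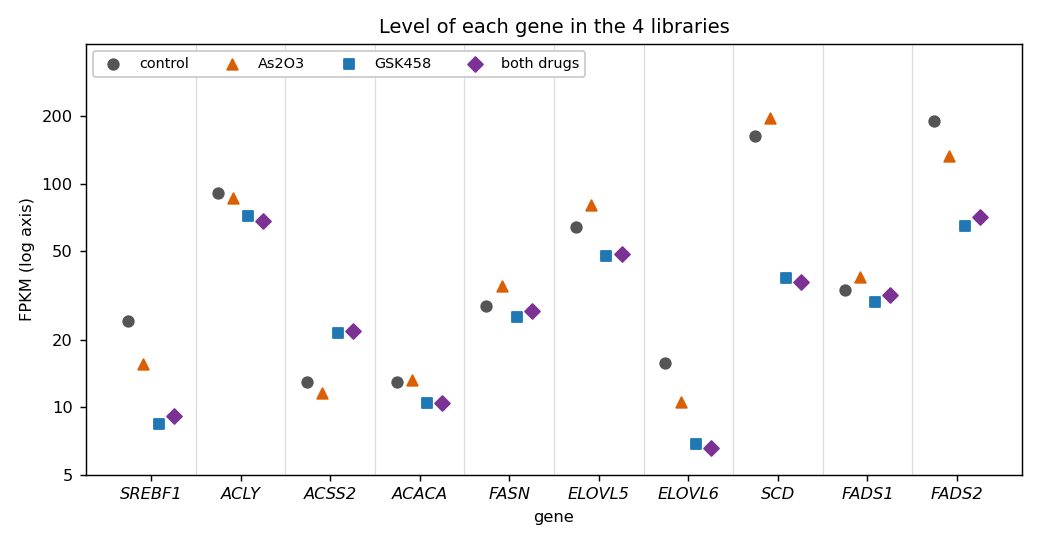
FPKM of the 10 genes (log axis) in the control, As2O3, GSK458 and both-drugs libraries, 1 point per library and no error bars because each group has 1 library. The GSK458 and both-drugs points lie close together for every gene, far below the others for SCD (37.7 and 36.2 FPKM against 163 and 195 FPKM) and above them for ACSS2 (21.4 and 21.9 FPKM against 12.9 and 11.6 FPKM).

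The SREBF1 message measured 24.3 FPKM without drug, 15.6 FPKM under As2O3, 8.47 FPKM under GSK458 and 9.13 FPKM under the pair of drugs. It was lower in all 3 treated libraries, and lowest where GSK458 was present. Relative to the control, GSK458 alone left 2.87-fold less SREBF1 message, a difference of −1.42 on the log2(FPKM + 1) scale, and both drugs 2.66-fold less (−1.32). As2O3 alone differed by −0.61. All differences below are on this scale, which understates those of low genes, and "2-fold" means a difference of at least 1 there. In such bulk libraries, fewer cells with a message and less message per cell cannot be told apart.

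Among the enzymes that supply and use acetyl-CoA, levels differed little between libraries except for ACSS2. Here and below, 4 values given in a row run from no drug through As2O3 and GSK458 to the pair. ACLY measured 91.1, 86.4, 71.8 and 67.7 FPKM. For ACACA the values were 12.96, 13.2, 10.5 and 10.4 FPKM. FASN, the enzyme that gives the pathway its name, stood at 28.3, 34.7, 25.4 and 26.8 FPKM. For these 3 genes the highest library exceeded the lowest by 1.34, 1.27 and 1.37 times, and both GSK458-treated libraries were the lower ones in each. ACSS2 went the other way, with 12.9, 11.6, 21.4 and 21.9 FPKM. Its 2 libraries with GSK458 were 1.66-fold and 1.70-fold above the control, differences of 0.69 and 0.72, and it was the only member of the 10 that was higher than the control in either of them. ACSS2 overlaps GGT7 on the opposite strand in GENCODE 29, and GGT7 stood at 13.1, 11.4, 17.8 and 15.8 FPKM. Like ACSS2, it was lower than the control with As2O3 and higher in both libraries with GSK458, and its part in the ACSS2 values was not tested. The libraries came from a stranded kit, but the strand setting of the quantification was not given in the sources used here. Whether reads of such pairs were kept apart is therefore unknown.

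The elongases differed from each other. ELOVL6 measured 15.9 FPKM without drug, 10.5 under As2O3, 6.87 under GSK458 and 6.62 under the pair, an order much like that of SREBF1. The GSK458 difference was −1.10 and that of both drugs −1.15. With a pseudocount of 5 FPKM in place of 1 FPKM they were −0.81 and −0.84 and no longer 2-fold. ELOVL5 stood at 64.2, 80.4, 47.6 and 48.5 FPKM. It was 1.25-fold above the control with As2O3 and 1.35-fold below it with GSK458, so that the ratio of ELOVL6 to ELOVL5 was 0.25 in the control and between 0.13 and 0.14 in each treated library.

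Of the desaturases, SCD and FADS2 were far lower with GSK458 while FADS1 was not. SCD measured 163 FPKM without drug, 195 FPKM under As2O3, 37.7 FPKM under GSK458 and 36.2 FPKM under the pair. The 2 libraries with GSK458 were thus 4.32-fold and 4.49-fold below the control (−2.08 and −2.14), the largest differences of any member. Only 117 of the 12260 genes were further below the control with GSK458, and 42 with both drugs. FADS2 stood at 190.3, 132, 64.9 and 70.9 FPKM, or 2.93-fold and 2.68-fold below the control in the libraries holding GSK458 (−1.54 and −1.41). FADS1, its neighbour on chromosome 11, stood at 33.4, 38.3, 29.5 and 31.9 FPKM. FADS2 exceeded FADS1 5.69 times without drug, 3.46 times under As2O3, 2.203 times under GSK458 and 2.22 times under the pair. The other stearoyl-CoA desaturase, SCD5, stood at 14.8, 14.1, 14.8 and 13.1 FPKM, and SCD exceeded it by 11.0 times in the control but by 2.55 times with GSK458. FADS3, a further gene of the FADS family, stood at 25.8, 36.9, 37.6 and 49.3 FPKM, higher than the control in each treated library.

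Some members overlap other genes, and whether shared reads entered their values was not measured. FADS2 overlaps FADS1 on the opposite strand and FEN1 on its own strand in GENCODE 29. FEN1, a nuclease of DNA replication, stood at 22.4, 17.8, 4.90 and 4.73 FPKM, and its part in the FADS2 values was not tested. GENCODE 29 names the pseudogenes SCDP1 and FADS2P1, and how reads that fit several places were counted was not given in the sources used here. SREBF1 overlaps RAI1 on the opposite strand, and RAI1 stood between 9.98 and 11.6 FPKM in all libraries.

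This comparison sets the culture given GSK458, the PI3K and mTOR inhibitor, against the untreated culture, whose time and vehicle were not given. Effects of the drug cannot be told apart from differences between the cultures. Of the 10 members, 9 were lower than the control, and SCD, FADS2, SREBF1 and ELOVL6 were at least 2-fold lower, against 3.87% of all 12260 genes. None was at least 2-fold higher, against 2.35% of all genes. The members' median difference was −0.38 and that of all genes −0.01. With both drugs the same 4 genes were at least 2-fold below the control, against 4.31% of all genes, and none was 2-fold above it, against 3.25% of all genes. The median was −0.41, with −0.01 for all genes. Both comparisons share the control library and are not independent of each other. The members were chosen with earlier results of these data known, so these counts describe them and test nothing.

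**Figure D2:**
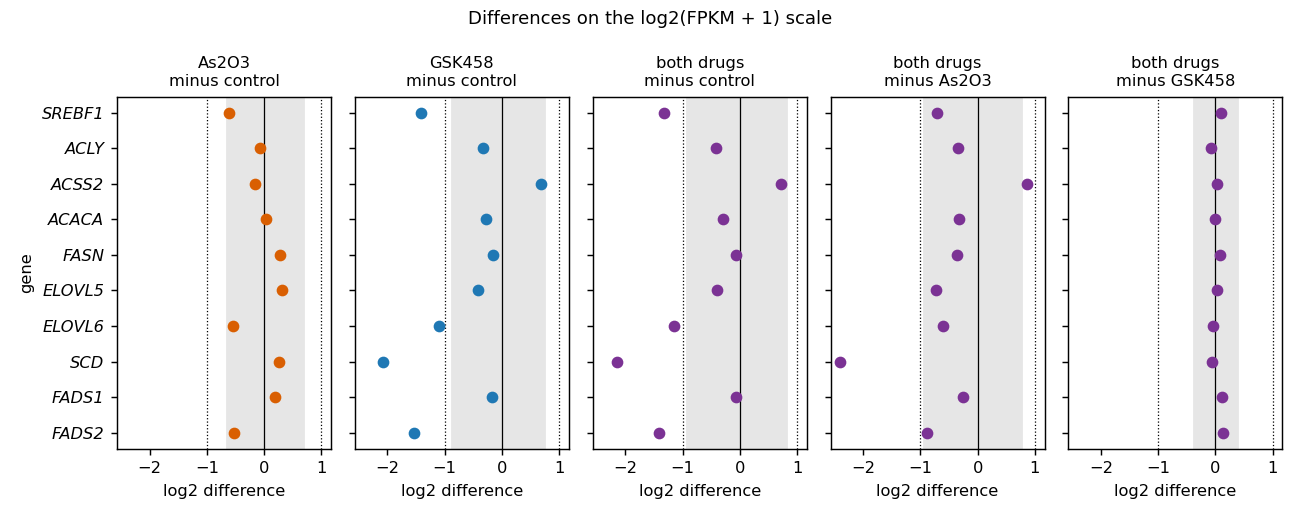
Differences of the 10 genes on the log2(FPKM + 1) scale in 5 comparisons, 1 point per gene. Grey bands span the 5th to the 95th percentile of all 12260 genes, dotted lines mark 2-fold, and no error is drawn because each group has 1 library. SCD, FADS2, SREBF1 and ELOVL6 lie left of the band in both comparisons of a GSK458-treated library with the control, and all 10 genes lie inside the narrow band of both drugs minus GSK458.

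With As2O3 alone no member was 2-fold apart from the control in either direction, against 2.07% of all genes higher and 1.41% lower. Rescaling libraries to equal FPKM sums split all genes into 246 above and 292 below, in place of 254 and 173. The members divided evenly, with 5 higher and 5 lower and a median of −0.02, beside 0.01 for all genes. SREBF1, ELOVL6 and FADS2 had the lowest differences, −0.61, −0.55 and −0.52, which are 1.56-fold, 1.504-fold and 1.44-fold lower FPKM. ELOVL5, FASN, SCD and FADS1 were on the other side with 0.32, 0.29, 0.26 and 0.19. All of these lie within the central 90% of all genes, from −0.65 to 0.70.

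A GSK458 difference could be read a second time from the libraries that also held As2O3, a pair that shares no library with the first. Set against As2O3 alone, 9 of 10 members were lower and SCD alone was at least 2-fold lower, against 4.27% of all genes, while none was 2-fold higher, against 2.28%. Under upper-quartile scaling 401 of all genes were higher and 419 lower by this measure in place of 280 and 524. SCD was 5.39-fold lower (−2.40), from 195 to 36.2 FPKM. FADS2, ELOVL5, SREBF1 and ELOVL6 followed with −0.89, −0.72, −0.71 and −0.60. ACSS2 was again higher, at 0.87. The median of the members was −0.48, and −0.02 over all genes. Each of the 10 members had the same sign in both GSK458 comparisons. How many of all genes kept their sign was not counted, so whether this sets the members apart is not known.

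**Figure D3:**
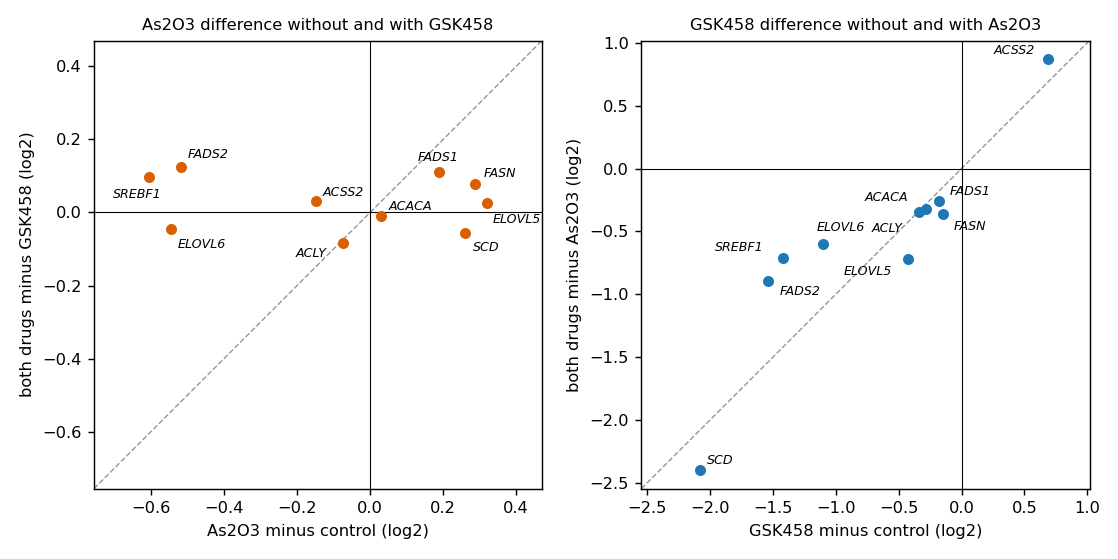
Each point is 1 gene, with the difference for a drug without the other drug on the x axis and beside the other drug on the y axis, both on the log2(FPKM + 1) scale; the dashed line marks equal values. In the left panel SREBF1, FADS2 and ELOVL6 lie between −0.52 and −0.61 on the x axis but between −0.05 and 0.13 on the y axis, and in the right panel every gene keeps its sign, from SCD (−2.08 and −2.40) to ACSS2 (0.69 and 0.87).

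As2O3 added to GSK458 made little difference to any member. The 10 differences of both drugs minus GSK458 ran from −0.08 for ACLY to 0.13 for FADS2, with a median of 0.03, and the median size over all genes regardless of sign was 0.13. None was 2-fold higher or lower, against 0.644% and 0.318% of all genes. SREBF1, which As2O3 alone left at 15.6 FPKM against 24.3 in the control, stood at 9.13 FPKM beside GSK458 against 8.47 with GSK458 alone. FADS2 stood at 70.9 against 64.9 FPKM, and ELOVL6 at 6.62 against 6.87 FPKM.

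The departure from additivity, both drugs minus As2O3 minus GSK458 plus the control, was accordingly above 0 for SREBF1 (0.70), FADS2 (0.64) and ELOVL6 (0.50), whose level with both drugs was higher than the sum of the single differences. It was below 0 for SCD (−0.32), ELOVL5 (−0.30) and FASN (−0.21), which were above the control with As2O3 alone and below it with both drugs. ACSS2 had 0.18, and FADS1, ACACA and ACLY lay between −0.08 and −0.01, values whose sign depended on the scaling. For all genes 95% of departures were smaller than 0.87 in size, and no member exceeded that. Without replicates an interaction could not be tested.

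The members fell into patterns that can be described by the distance between their 4 log2 values, each centred on the mean of the gene. SREBF1 lay nearest to FADS2 (0.16) and ELOVL6 (0.24) among the members, and these ranked 7 and 23 among 9154 genes averaging 5 FPKM or more. FASN and FADS1 lay 0.08 apart, and ACACA and ACLY 0.10. SCD was 1.329 from SREBF1, which ranked 321. The 5 genes of all nearest to SREBF1 were DOCK10, DBI, CRELD2, PDSS1 and LIPG, at distances from 0.08 to 0.14. Nearest to SCD were TRIP13, KIF22, FANCI, WDR62 and ORC6, at 0.23 to 0.35. These are genes of mitosis, DNA replication or DNA repair, and a link of SCD to them was not tested. With 4 libraries these distances describe the shape of 4 values and nothing more.

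Other genes of lipid metabolism, from 8 lists, show where the members stand. The shares of all genes given above for each comparison apply to these list counts too. With GSK458 they were 2.35% at least 2-fold higher and 3.87% lower. Of 19 measured SREBP processing genes and transcriptional partners, INSIG1 alone was at least 2-fold lower with GSK458 and none 2-fold higher. By sign, 8 were higher and 11 lower (median −0.02). INSIG1, which retains SREBP in the endoplasmic reticulum and is itself an SREBP target, measured 8.09 FPKM without drug, 25.6 under As2O3, 3.38 under GSK458 and 3.81 under the pair. SREBF2, the gene of the sterol-regulating SREBP-2, stood at 52.9, 57.8, 43.0 and 40.03 FPKM, so SREBF1 amounted to 0.46 of SREBF2 in the control and to 0.20 with GSK458. SCAP, the escort of SREBP to the Golgi, was between 21.7 and 22.6 FPKM in all libraries. INSIG1 was above the control with As2O3 alone by 1.55. SCD was above it by only 0.26, within the central 90% of all genes, as were ELOVL5 (0.32) and FASN (0.29). INSIG1 and SCD were below the control with GSK458 (−1.05 and −2.08), whereas SREBF1 was lower with either drug. This grouping was made after the values were seen.

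Supply and elongation genes held few 2-fold differences. Of 8 measured genes for precursors and NADPH, none was 2-fold apart with GSK458 (median −0.34). PGD, an NADPH-producing enzyme of the pentose phosphate pathway, was at least 2-fold higher with As2O3, at 148.6 FPKM without drug and 315 FPKM under it. SLC25A1, which carries citrate out of mitochondria, measured 74.6 FPKM without drug and 55.8 FPKM under GSK458. In the separate mitochondrial fatty acid synthesis pathway none of 9 measured genes was 2-fold apart with GSK458 (median −0.28); the widest were NDUFAB1, its acyl carrier protein, with −0.68 and LIAS, the lipoate synthase, with 0.53. Among 8 other measured genes of the elongation cycle TECR, the reductase of its last step, was 2-fold lower with GSK458, 157 FPKM without drug and 77.05 FPKM under it (−1.02), and the list's median was −0.14. None of 7 other desaturases and electron donors was 2-fold apart with GSK458, and their median was 0.00. The widest there were FADS3 (0.53) and CYB5A (−0.15), the cytochrome that passes electrons to desaturases.

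Genes that move fatty acids into storage or oxidation included some on the higher side. Of all genes, 2.35% were at least 2-fold higher with GSK458 and 3.87% lower. Of 8 measured genes of activation, binding and uptake, DBI was 2-fold lower with GSK458 and none 2-fold higher. By sign, 4 were higher and 4 lower (median 0.05). DBI, which binds acyl-CoA, stood at 352, 221, 128 and 128 FPKM. FABP5, a fatty acid carrier, was 2-fold lower only in the comparisons of both drugs with the control and with As2O3, at 48.4, 44.9, 27.2 and 18.4 FPKM. Of 16 measured genes of glycerolipid synthesis and droplets, LPIN3 and PNPLA2 were at least 2-fold higher with GSK458 and none 2-fold lower. By sign, 6 were higher and 10 lower (median −0.10). LPIN3, a phosphatidate phosphatase, stood at 8.41, 15.3, 31.3 and 36.3 FPKM, and PNPLA2, the lipase that opens triglyceride stores, at 15.3, 28.2, 32.6 and 39.5 FPKM. The droplet coat gene PLIN2 was 2-fold higher with As2O3 and with both drugs, at 24.8, 53.3, 34.6 and 56.5 FPKM.

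Of 21 measured genes of fatty acid oxidation, CPT1A and CPT1B were at least 2-fold higher with GSK458, against 2.35% of all genes. None was 2-fold lower, against 3.87%, but by sign 13 were lower and 8 higher, with a median of −0.14. The 2 CPT1 genes encode forms of the transferase that admits long-chain fatty acids to mitochondria, a step that malonyl-CoA blocks. CPT1A stood at 5.82, 4.95, 14.5 and 13.2 FPKM and CPT1B, which forms a readthrough with its neighbour and is therefore uncertain, at 5.87, 6.79, 13.9 and 15.9 FPKM. With both drugs PPARA, a lipid-sensing receptor, joined them, at 1.79, 3.13, 4.04 and 5.77 FPKM, while the oxidation genes ETFB and HADH were 2-fold below the control.

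**Figure D4:**
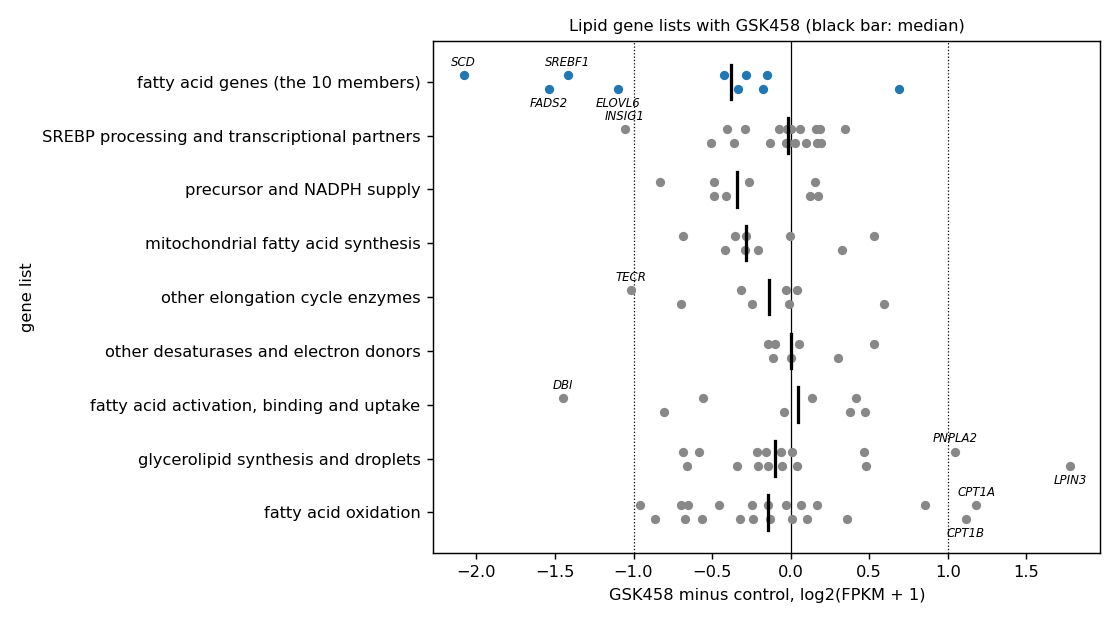
Differences of GSK458 minus control on the log2(FPKM + 1) scale for the 10 fatty acid genes (blue) and 8 other lipid gene lists (grey), 1 point per gene averaging 1 FPKM or more; black bars are list medians, dotted lines mark 2-fold, genes at least 2-fold apart are named, and vertical offsets within a row carry no value. The fatty acid genes have the lowest median (−0.38), close to that of precursor and NADPH supply (−0.34). They have 4 genes left of the 2-fold line, and no other list has more than 1 there. Members and lists were chosen with earlier results of these data known, so their order tests nothing. Of all 12260 genes, 3.87% lie there.

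Genes of proliferation stood lower in the same libraries. MKI67, TOP2A, CCNB1, RRM2 and MCM2 were all at least 2-fold lower with GSK458, against 3.87% of all genes. MKI67 measured 31.7 FPKM without drug, 33.6 under As2O3, 2.08 under GSK458 and 7.21 under the pair. Their part in the fatty acid values was not tested. Between both drugs and GSK458 alone, MKI67, TOP2A, CCNB1, RRM2 and MCM2 differed by 1.41, 1.22, 0.74, 0.53 and 0.08. The first pair was at least 2-fold higher, against 0.644% of all genes. In the same comparison the 10 members ran from −0.08 to 0.13, and a link between them and the proliferation genes was not tested. The genes named above as nearest in pattern to SCD also stood lower than the control in both libraries with GSK458.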

How the data were processed

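Values were used as the authors deposited them, as FPKM per gene symbol. The submitters' processing notes name Cuffdiff 2.2.1, TopHat2 2.1.1, SAMtools 0.1.18, Bowtie2 2.2.8 and the build hg19 without their roles, and per the labels' protocols libraries came from a stranded mRNA kit. Annotation, strand setting and treatment of multi-mapping reads were not given in the sources used here. Columns were matched to samples by title. Genes averaging 1 FPKM or more entered comparisons as log2(FPKM + 1), and 2-fold meant a difference of at least 1. Relative depth was the commonest ratio (3 decimals) to control values below 0.5 FPKM. With 1 library per group no test was possible. All 10 members are named, up to 4 genes per list and direction where 2-fold apart (otherwise the widest each way), and 5 nearest patterns; a few further genes (SCAP, SREBF2, SLC25A1, SCD5, FADS3) were named after their values were seen. Members and lists were chosen with earlier results of these data known. Code (Python 3.11.15, pandas 2.3.3) was tested on simulated data. Start windows and sequences are RefSeq's; FASN had no window in the table. Some genes of the lists and markers are not reported here and were left out of the list counts.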

Additional observations from a re-analysis of the deposited data

Results flagged for a closer look

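SREBF1 and FADS2 had As2O3 differences of opposite sign without and with GSK458, by at least 0.5 on the log2(FPKM + 1) scale in 1 of the pairs. For SREBF1 the difference was −0.61 without GSK458 and 0.10 beside it. For FADS2 it was −0.52 and 0.13. With 1 library per group these differences between settings were not tested.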

How the results depend on the processing

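No paired analysis was possible because each group has 1 library. For the same reason no library could be left out of a group. Across the 8 alternatives planned (a pseudocount of 0.1 or 5 FPKM, a filter at a mean of 5 FPKM or none, 3 scalings and a threshold of 1.5-fold), the counts of members kept within 1.5 times of the main count and the medians kept their sign, except at 1.5-fold. There, 1 member was lower with As2O3, 1 was higher with GSK458, 1 was higher with both drugs than the control, 1 was higher with both drugs than As2O3 and 5 were lower with both drugs than As2O3. Of 60 single-gene values, 6 changed sign, all of them below 0.1 in size in the main setting. Rescaling to equal sums moved the median of all genes from −0.01 to −0.11 for GSK458 and from 0.00 to 0.13 for the departure. Counts over all genes depended more on the setting. Over the alternatives, As2O3 minus control gave 138 to 911 higher and 50 to 791 lower, GSK458 minus control 124 to 1056 and 258 to 1267, both drugs minus control 166 to 1217 and 257 to 1429, both drugs minus As2O3 69 to 1160 and 276 to 1427, and both drugs minus GSK458 37 to 269 and 15 to 188. Culture-to-culture error is unknown, which limits every value.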
